A study of Mus musculus with 2 samples.

Results

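The genes described here carry glucose into the cell, break it down to pyruvate and lactate, and respond to low oxygen. They were taken from a list of 36 genes by matching gene symbols to array probe sets that are annotated to a single gene. Of the 36 genes, 32 had such a probe set, out of 12393 genes measured. The list was ordered by role: glucose transporters, lactate transporters, the enzymes of upper and lower glycolysis, the enzymes that decide the fate of pyruvate, the hypoxia-inducible factor HIF with its hydroxylases, and other genes that HIF is known to induce. Gpi1, Eno1 and Ankrd37 were not analysed here, because no probe set in the annotation used carried their symbol. Bnip3l was not analysed either, because its probe sets were also annotated to a pseudogene.

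Glucose enters cells through facilitative transporters of the SLC2 family and is trapped by hexokinase. Glycolysis then splits it into pyruvate, which lactate dehydrogenase reduces to lactate or pyruvate dehydrogenase passes to the mitochondria. Hypoxia-inducible factor is a transcription factor whose alpha subunit is marked for degradation by oxygen-dependent prolyl hydroxylases, and it is known to induce many glycolytic genes. Mouse embryonic stem cells are known for a high rate of glycolysis.

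The study compared 2 stably transfected clones of the mouse embryonic stem cell line E14tg2a. One, clone 4 of plasmid shDAB2-285, carried a short hairpin RNA against Dab2, which encodes an endocytic adaptor protein; the other, clone 9 of the vector control, carried the control plasmid. Both were grown in serum (10%) with leukaemia inhibitory factor at 1000 U/ml and no further treatment, and 1 Affymetrix mouse 430A array was hybridised per clone. Each group is therefore 1 clone measured once. No test across samples exists, and a difference between the arrays cannot be told apart from a difference between clones, cultures or hybridisations.

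Values are log2 expression values made by RMA, and a difference is always the shDAB2 clone minus the vector clone. A gene was represented by its single-gene probe set with the highest mean signal, and the gene passed the floor if at least 1 array gave it 6.62, the median over every value of the table. Of the 32 genes 28 lay above the floor, among 7269 genes in all. Between 2 probe sets of 1 gene the difference had an SD of 0.11 per probe set, over 2500 genes; this is the only repeat measurement, and it covers probe noise and transcript variants, not cultures. Over all genes above the floor the differences had an SD of 0.22. For Dab2 the brightest probe set gave 6.33 against 6.64 (shDAB2, vector), a difference of -0.31, and the others -0.05 and -0.01. The brightest passed the floor only on the vector array, and the others lay below it on both arrays. A knockdown of Dab2 therefore cannot be judged from these values.

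Markers of embryonic stem cells were high on both arrays, with 10 of 10 above the floor, at 8.18 to 12.29 in the shDAB2 clone against 8.29 to 12.37 in the vector clone (summed log2 values of 95.6 and 94.6). On the brightest probe sets 6 of these markers were higher in the shDAB2 clone and 4 lower, with a median of 0.07. Fgf4 was 0.61 higher, with 0.34, 0.18 and 0.05 from its dimmer probe sets. It passed 1.5-fold, as did 0.578% of all genes above the floor upwards. Dppa4 was 0.39 higher. Esrrb was lower, at -0.24 and -0.21 on its probe sets, and so was Sox2, at -0.17. All of these were named after their values were seen. None of 7 primitive endoderm markers passed the floor, with values up to 6.49 and 6.46 and summed values of 44.2 and 44.1. Of 7 fibroblast markers 1 passed it, Dcn at 6.62 and 6.55 (summed values over the list of 44.5 and 44.8). Of 5 trophectoderm markers 2 passed, Tfap2c at 7.06 and 7.53 and Hand1 at 6.86 and 6.88 (summed values of 33.3 and 33.7), while Cdx2, Eomes and Elf5 did not. Dcn passed only on the shDAB2 array, and these markers too were picked for mention with their values known. Their part in the results below was not tested.

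Within the pathway, the genes with the larger differences went in both directions, and whether its steps differ was not tested. Both glucose transporter genes were lower in the shDAB2 clone, Slc2a3 by 1.73-fold and Slc2a1 by 1.49-fold. Most glycolytic enzyme genes were slightly higher, led by Tpi1 (1.45-fold) and Pgam1 (1.38-fold), and the lactate dehydrogenase gene Ldha was 1.46-fold higher. The pyruvate dehydrogenase subunit gene Pdha1 was 1.30-fold lower. In RNA pooled from a whole culture, fewer cells with a transcript and less of it per cell cannot be told apart. Bnip3, a mitophagy receptor gene induced by HIF, was 1.59-fold higher, while on their brightest probe sets the other HIF target genes of its class above the floor differed by 0.14 or less on the log2 scale.

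At a limit of 1.5-fold, 1 of the 28 genes was higher (Bnip3) and 1 was lower (Slc2a3). Of all 7269 genes above the floor, 0.578% passed this limit upwards and 1.62% downwards. A single gene in each direction is too few to set against those shares. Slc2a1, Ldha and Tpi1 lay just short of the limit of 0.58 on the log2 scale, with differences of -0.57, 0.54 and 0.54. In sign alone, 16 of the 28 genes were higher and 12 lower, and the median was 0.06. Over all genes 3636 were higher and 3585 lower, and the median was 0.001.

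**Figure D1:**
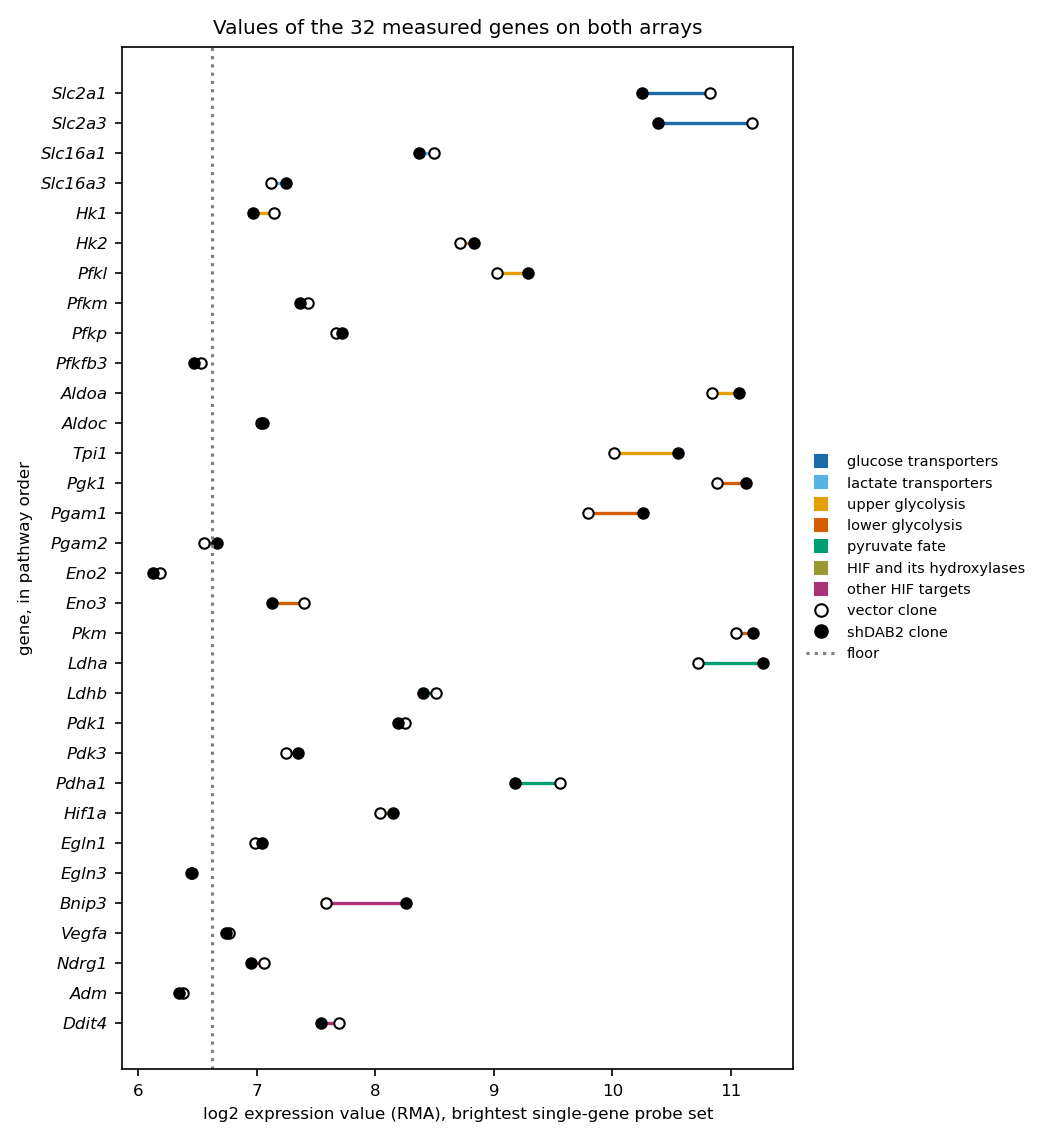
Log2 expression value (RMA, x axis) of the 32 measured genes on the vector array (open circles) and the shDAB2 array (filled circles), on each gene's brightest single-gene probe set, in pathway order; lines join the arrays and are coloured by class, and the dotted line is the floor of 6.62. Slc2a1, Slc2a3 and Pdha1 have the filled circle on the left, and Tpi1, Pgam1, Ldha and Bnip3 have it on the right.

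The stretches of DNA before the starts of the genes that differed most are shown here, because HIF binds a short core element, ACGTG or GCGTG, and these genes include both higher and lower ones. Each is the 250 bases before a transcription start in RefSeq (build GRCm38.p6), read 5′ to 3′ on the gene's strand. Capitals mark the core on either strand (CACGT and CACGC on the reverse); matches that overlap, as in CACGTG, count as 1 stretch. Slc2a3 is not shown, because the table used held no entry for it.
Slc2a1 (chr4:119108495-119108744, plus strand): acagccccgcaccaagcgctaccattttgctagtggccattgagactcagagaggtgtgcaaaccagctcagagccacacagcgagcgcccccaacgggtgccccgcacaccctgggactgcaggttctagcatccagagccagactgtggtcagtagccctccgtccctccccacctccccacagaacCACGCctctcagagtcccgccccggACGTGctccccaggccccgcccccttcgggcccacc
Pdha1 (chrX:160138431-160138680, minus strand): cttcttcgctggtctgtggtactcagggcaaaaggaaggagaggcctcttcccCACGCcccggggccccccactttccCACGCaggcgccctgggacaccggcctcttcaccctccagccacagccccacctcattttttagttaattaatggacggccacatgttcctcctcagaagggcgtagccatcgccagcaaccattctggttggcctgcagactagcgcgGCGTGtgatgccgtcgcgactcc
Bnip3 (chr7:138909507-138909756, minus strand): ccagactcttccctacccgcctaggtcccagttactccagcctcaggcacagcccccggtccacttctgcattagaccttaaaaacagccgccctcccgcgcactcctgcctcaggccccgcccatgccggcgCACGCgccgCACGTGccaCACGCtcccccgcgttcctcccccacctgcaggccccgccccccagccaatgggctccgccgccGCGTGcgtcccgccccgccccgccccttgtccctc
Ldha (chr7:46845554-46845803, plus strand): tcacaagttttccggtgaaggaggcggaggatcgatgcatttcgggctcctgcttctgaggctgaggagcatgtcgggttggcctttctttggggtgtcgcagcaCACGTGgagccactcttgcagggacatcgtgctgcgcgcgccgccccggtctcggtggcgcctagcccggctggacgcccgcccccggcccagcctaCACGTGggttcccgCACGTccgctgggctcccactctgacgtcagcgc
Tpi1 (chr6:124814159-124814408, minus strand): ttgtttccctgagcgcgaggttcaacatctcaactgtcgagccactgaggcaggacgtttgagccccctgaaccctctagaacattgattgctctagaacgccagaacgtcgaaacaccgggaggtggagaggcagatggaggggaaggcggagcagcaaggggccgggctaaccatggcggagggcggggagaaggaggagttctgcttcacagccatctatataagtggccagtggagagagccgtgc
Pgam1 (chr19:41911621-41911870, plus strand): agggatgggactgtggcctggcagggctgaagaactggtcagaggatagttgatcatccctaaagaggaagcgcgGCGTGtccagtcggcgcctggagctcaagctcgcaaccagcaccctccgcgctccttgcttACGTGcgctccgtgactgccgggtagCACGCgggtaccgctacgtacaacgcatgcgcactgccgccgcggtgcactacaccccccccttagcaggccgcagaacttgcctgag
The core occurred in 4 stretches before Bnip3 and in 3 before this start of Ldha, the genes with the largest positive differences. It occurred in 3 stretches before Pgam1, and Tpi1 had none in this window. Among the lower genes Slc2a1 had 2 stretches and Pdha1 had 3. These genes were picked by the size of their differences, and the core is common, at 57.9% of windows of the other genes above the floor. Its part in the differences was not tested. A second start of Ldha in the table had 1 stretch.

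Over the list, 33 of the 36 genes had an entry, with 47 windows in all. The core was present in 78.7% of these windows, against 57.9% of 7612 windows of the other genes above the floor and 38.6% of all 32851 windows. With 3 or more stretches, the numbers were 8 of the 47 windows, 9.45% of windows of the other genes above the floor and 4.65% of all windows. Base composition differs between these sets: the median GC content was 61.6% for the listed genes, 60.4% for the other genes above the floor and 52.4% for all windows. The windows of the listed genes were not limited to genes above the floor, and some overlap each other. The list was also drawn up to hold known HIF targets. A match of 5 letters is a description of the sequence, and HIF binding was not measured.

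The glucose transporter genes had the largest median difference of the classes, -0.68 over both genes. Slc2a3 encodes GLUT3, a transporter with a high affinity for glucose. On its brightest probe set it read 10.39 in the shDAB2 clone against 11.18 in the vector clone, a difference of -0.79, larger in size than 99.3% of all genes above the floor. The second probe set read 9.95 and 11.05, a difference of -1.10. The dimmer ones gave -1.37 (8.24 against 9.61) and -1.07 (8.29 against 9.37). All 4 probe sets were thus lower in the shDAB2 clone, 3 of them by more than 2-fold. On the brightest probe set 0.179% of genes were lower by at least 2-fold, and Slc2a3, at 1.73-fold, was not among them. The brightest probe set of Slc2a3 gave the smallest difference of the 4, and the mean over them was -1.08.

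Slc2a1 encodes GLUT1, the widely expressed basal glucose transporter. The brightest of its probe sets gave 10.25 in the shDAB2 clone against 10.82 in the vector clone, a difference of -0.57. The second read 9.87 and 10.36 (-0.50) and the third 9.72 and 10.30 (-0.58). The differences on the 3 probe sets thus spanned 0.08 and lay closer together than those of Slc2a3. After cyclic loess normalization of the arrays the brightest reached -0.59 and passed 1.5-fold. It stayed short of that limit with quantile normalization (-0.56) and median centring (-0.57), as did the mean of the probe sets (-0.55).

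Other SLC2 genes, from the neighbouring genes of the pathway, were dim. Slc2a8 read 6.88 in the shDAB2 clone against 6.96 in the vector clone, a difference of -0.08. Slc2a2, Slc2a4, Slc2a5, Slc2a9 and Slc2a10 stayed under the floor, and their brightest probe sets differed by -0.01 to 0.11. These SLC2 genes are outside the rule for named genes and were chosen after their values were seen.

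The lactate transporter genes did not differ in one direction. Slc16a1, which encodes the monocarboxylate transporter MCT1, read 8.37 in the shDAB2 clone against 8.49 in the vector clone (-0.13). Slc16a3, which encodes MCT4, a carrier linked to lactate export, read 7.24 and 7.12 (0.12). Both differences were about the size of the SD for 1 probe set. Bsg, the chaperone protein gene that these carriers need to reach the membrane, read 9.99 and 9.79, a difference of 0.20; it falls outside the rule for named genes and was chosen after its value was seen.

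**Figure D2:**
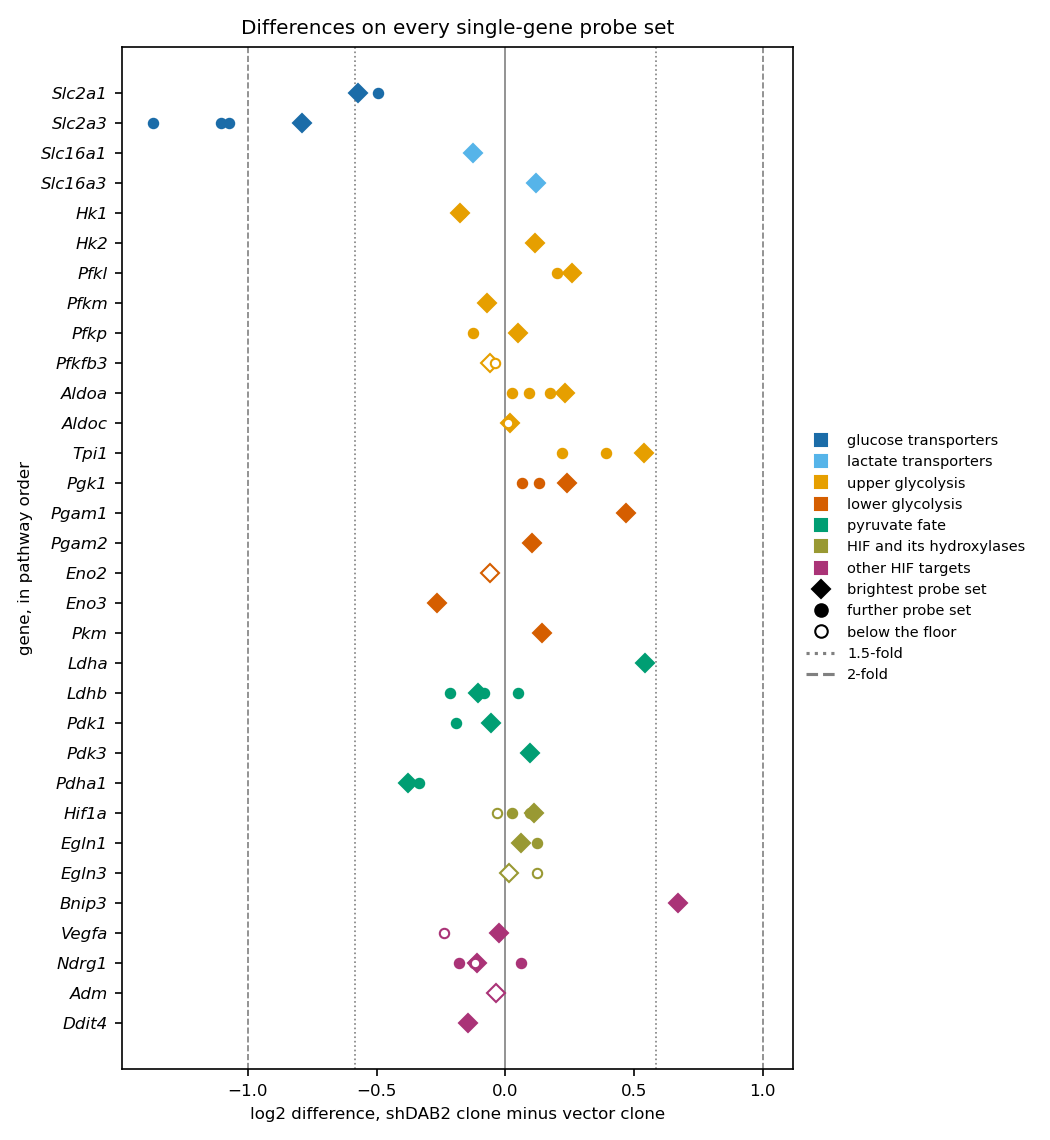
Log2 difference (shDAB2 clone minus vector clone, x axis) on every single-gene probe set of the 32 genes, in pathway order and coloured by class; diamonds are the brightest probe set, circles further ones, open symbols lie below the floor, and dotted and dashed lines mark 1.5-fold and 2-fold. The 4 probe sets of Slc2a3 run from -1.37 to -0.79, and the 3 of Tpi1 from 0.22 to 0.54.

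In upper glycolysis 8 genes passed the floor, and 6 of them were higher in the shDAB2 clone. The class had a median of 0.08. Tpi1, triosephosphate isomerase, which interconverts the products of aldolase, led the class. It read 10.55 in the shDAB2 clone against 10.01 in the vector clone, a difference of 0.54. Its other probe sets gave 0.22 (9.96 against 9.74) and 0.39 (8.98 against 8.59), so the sign held on all 3 while the size ranged from 1.16-fold to 1.45-fold.

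Phosphofructokinase catalyses the committed step of glycolysis and has liver, muscle and platelet type subunits. The liver type gene Pfkl was higher, at 9.29 against 9.03 on the brightest probe set (0.26) and 8.80 against 8.59 on the second (0.20). Pfkm, the muscle type, read 7.36 and 7.43 (-0.07). Pfkp, the platelet type, differed by 0.05 on one probe set and by -0.13 on the other, so its direction is uncertain.

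The hexokinase genes, of the first step, went apart by small amounts. Hk2, a form that HIF is known to induce, read 8.83 in the shDAB2 clone against 8.71 in the vector clone, a difference of 0.11. Hk1, the constitutive form, read 6.97 and 7.15, with -0.18 and -0.17 on its probe sets. Of the aldolase genes, which split the sugar, Aldoa read 11.07 and 10.84 (0.23), with 0.09, 0.03 and 0.17 on its other probe sets. Aldoc differed by 0.02. Pfkfb3, which makes the allosteric activator of phosphofructokinase, lay below the floor at 6.47 and 6.53.

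In lower glycolysis 5 genes passed the floor, of which 4 were higher, and the class had a median of 0.14. Pgam2, one of the 4, passed the floor only on the shDAB2 array, so the floor itself fixed its direction; without it 3 of 4 genes were higher. Pgam1, the phosphoglycerate mutase of most tissues, read 10.26 in the shDAB2 clone against 9.79 in the vector clone, a difference of 0.47 on its only probe set. Pgk1, phosphoglycerate kinase, an ATP-forming step, read 11.13 and 10.89 (0.24), with 0.13 and 0.07 on its other probe sets. Pkm, pyruvate kinase, which forms pyruvate, read 11.18 and 11.04 (0.14). These genes were all higher in the shDAB2 clone, by 1.10-fold to 1.38-fold.

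The muscle forms in this class stood apart or were dim. Eno3, the muscle enolase gene, was the lower one, at 7.13 in the shDAB2 clone against 7.40 in the vector clone (-0.26). Pgam2, the muscle mutase gene, read 6.66 and 6.56 (0.10), on either side of the floor. Eno2, the neuronal enolase gene, lay below the floor at 6.12 and 6.18.

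Both classes of enzymes together had 10 of 13 genes higher and a median of 0.11, or 9 of 12 and 0.13 without Pgam2. The difference varied with probe-set signal, whose part in it was not tested. The 6 enzyme genes whose mean signal was 9 or more (Pfkl, Aldoa, Tpi1, Pgk1, Pgam1 and Pkm) were all higher, with a median of 0.25, while of the 7 below 9 only 4 were higher and the median was 0.02. Over all genes of the arrays with a mean signal of 9 or more, 56.7% of 693 were higher and the median was 0.04; below 9, 49.3% of 6576 were higher. The limit of 9 was chosen after the values were seen. Tpi1, Pgam1, Pgk1, Aldoa and Ldha are known to have processed pseudogenes, which probes can also match, and the values of these genes carry that uncertainty.

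**Figure D3:**
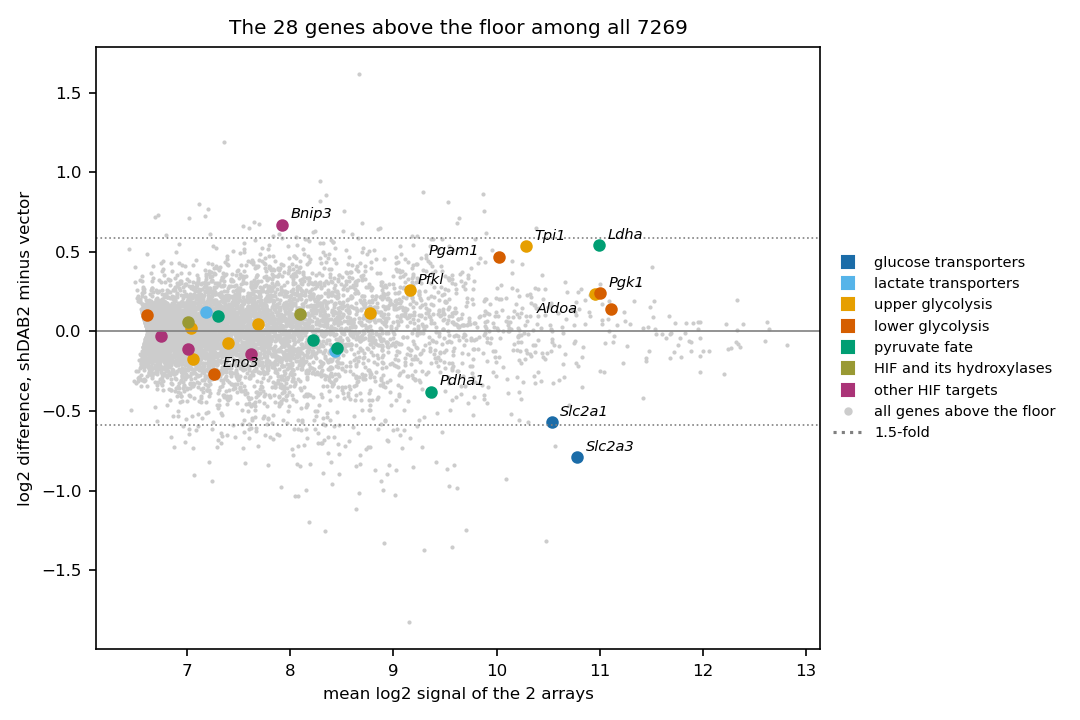
Log2 difference (shDAB2 clone minus vector clone, y axis) against mean log2 signal of the arrays (x axis) for the 28 genes above the floor, coloured by class and labelled where the difference exceeds 0.2 in size, over all 7269 genes above the floor in grey; dotted lines mark 1.5-fold. Tpi1, Pgam1 and Ldha lie at 0.47 to 0.54, under the upper dotted line, and Slc2a3 lies below the lower one.

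At the fate of pyruvate the genes were split, with 2 of 5 higher, 3 lower and a median of -0.05. Ldha, the lactate dehydrogenase subunit that favours lactate formation, read 11.27 in the shDAB2 clone against 10.72 in the vector clone, a difference of 0.54 on its only single-gene probe set. Ldhb, the subunit of tissues that oxidise lactate, read 8.40 and 8.51 on its brightest probe set (-0.10), and its others gave 0.05, -0.21 and -0.08. The gap between the differences of Ldha and Ldhb was 0.65, the widest among the isoform pairs of the list.

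Pdha1, the alpha subunit of pyruvate dehydrogenase E1, read 9.18 in the shDAB2 clone against 9.56 in the vector clone, a difference of -0.38, and 8.98 against 9.31 on its second probe set (-0.34). Pdhb, the beta subunit of the same enzyme, from the neighbouring genes, was also lower, at 9.40 and 9.81 (-0.41), with -0.12 on a second probe set below the floor. On their brightest probe sets the genes of both E1 subunits were thus lower by similar amounts. Dlat and Dld, of the E2 and E3 subunits, chosen after their values were seen, gave -0.17 and -0.05, and the other probe sets of Dlat -0.01 and 0.06. Of the 4 neighbouring genes for pyruvate entry and this complex that passed the floor, all were lower on the brightest probe set, with a median of -0.11.

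The kinases that inhibit pyruvate dehydrogenase showed little difference. Pdk1, a HIF target, read 8.19 and 8.25 (-0.05), with -0.19 on its second probe set. Pdk3 read 7.35 in the shDAB2 clone against 7.25 in the vector clone (0.10).

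The genes of HIF and its hydroxylases hardly differed. Hif1a read 8.15 in the shDAB2 clone against 8.04 in the vector clone on its brightest probe set (0.11), and its other probe sets differed by 0.03, 0.10 and -0.03. Egln1, the main prolyl hydroxylase, read 7.04 and 6.98 (0.06), with 0.12 on the second. Egln3, a hydroxylase gene that HIF induces, lay below the floor at 6.46 and 6.44. HIF is controlled mainly through protein stability, which these arrays do not measure.

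Among the other HIF target genes 1 of 4 above the floor was higher and the rest lower (median -0.07). Bnip3 read 8.26 in the shDAB2 clone against 7.59 in the vector clone, a difference of 0.67 that was larger in size than 98.7% of all genes above the floor. It had 1 probe set, so no second measurement of it exists here. Vegfa, the angiogenic growth factor gene, read 6.74 and 6.77 (-0.03), with -0.24 on a second probe set below the floor (6.03 against 6.26). Ndrg1, a stress-induced gene, read 6.95 and 7.06 (-0.11), and its other probe sets ran from -0.18 to 0.06. Ddit4, an inhibitor of mTORC1 signalling also known as REDD1, read 7.55 in the shDAB2 clone against 7.69 in the vector clone (-0.14). Adm, the vasodilator peptide adrenomedullin, lay below the floor at 6.34 and 6.38.

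HIF is known to act on genes of several classes, so its textbook targets were also set side by side: Slc2a1, Slc2a3, Slc16a3, Hk2, Pfkl, Aldoa, Aldoc, Tpi1, Pgk1, Pgam1, Pkm, Ldha, Pdk1, Egln1, Bnip3, Vegfa, Ndrg1 and Ddit4. Of these 18 genes 12 were higher, 6 were lower, and the median was 0.12. Pfkfb3, Egln3 and Adm, also targets, lay below the floor and were not counted. The 18 counted genes run from Slc2a3 (-0.79) and Slc2a1 (-0.57) at one end to Ldha (0.54) and Bnip3 (0.67) at the other. Many genes of the list are such targets, so their place at either end was likely from the start. HIF activity was not measured, and its part in these differences was not tested. This grouping was made after the values were seen.

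**Figure D4:**
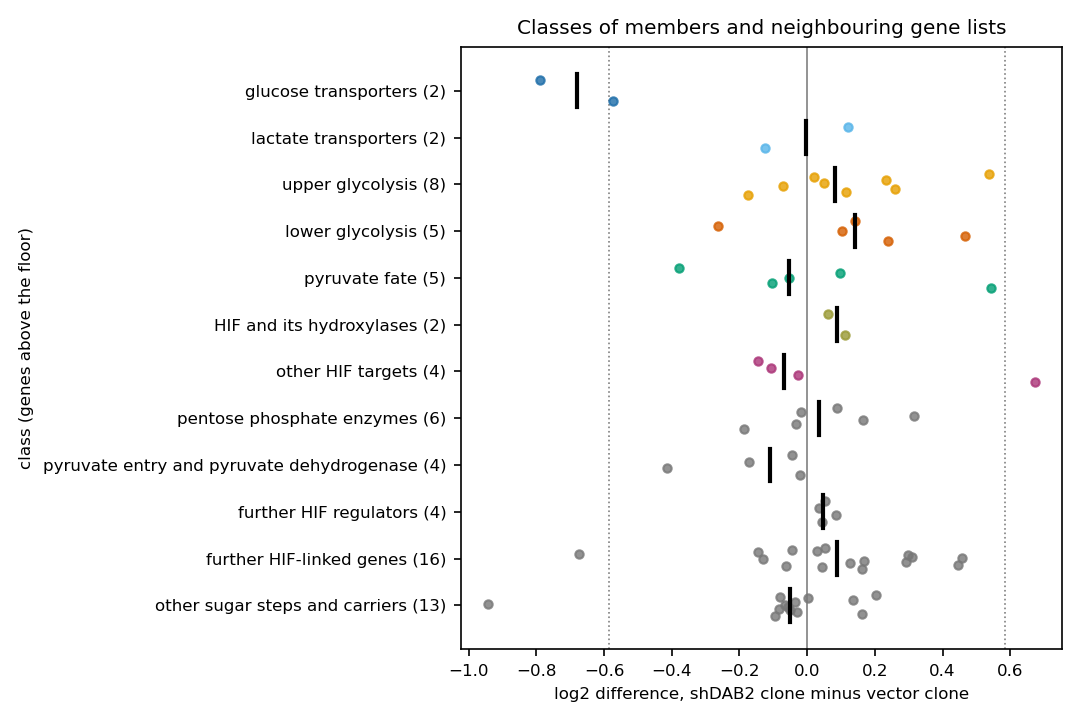
Log2 difference (shDAB2 clone minus vector clone, x axis) of each gene above the floor, by class of the list (coloured) and for neighbouring genes of the same pathways (grey), with the number of genes in brackets; black bars are medians and dotted lines mark 1.5-fold. The glucose transporters have a median of -0.68, and every other class or neighbouring group has a median between -0.11 and 0.14.

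The 3 classes with at least 5 genes (upper glycolysis, lower glycolysis and the fate of pyruvate) had medians of 0.08, 0.14 and -0.05, beside 0.001 for all genes. Whether the classes differ was not tested, since each rests on the same pair of arrays. Aldoa, Pgam1 and Ldha were higher by 0.23, 0.47 and 0.54, while their isoform genes Aldoc, Pgam2 and Ldhb differed by 0.02, 0.10 and -0.10. These pairs were chosen among the isoform pairs after their values were seen. Aldoc and Pgam2 were dim, and the method compresses differences at low signal.

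Second probe sets mostly gave the same direction. Of 14 genes with more than 1 probe set above the floor, 11 had the same sign on each of them and 3 did not (Pfkp, Ldhb and Ndrg1). Of 26 further probe sets above the floor, 23 had the sign of the brightest. The 3 exceptions belonged to genes whose brightest probe set differed by 0.11 or less.

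Of 79 neighbouring genes of the same pathways 61 were measured and 43 lay above the floor. Of these 22 were higher and 21 were lower, and the median was 0.003. Some passed the floor on a single array, so the floor itself fixed their direction. When both arrays had to reach the floor, 35 genes remained, 18 up and 17 down in the shDAB2 clone. Their median was also 0.003, and this restriction was chosen after the values were seen. At 1.5-fold, 0 of the 43 were higher and 2 lower, beside 0.578% and 1.62% of all genes above the floor. So few genes cannot be set against those shares. Pck2, the mitochondrial form of phosphoenolpyruvate carboxykinase, was the lowest, at 6.78 in the shDAB2 clone against 7.72 in the vector clone (-0.94), with -0.10 on a second probe set below the floor. Anxa2, an annexin gene reported to respond to hypoxia, read 8.82 and 9.49 (-0.67), with -0.17 on its second probe set.

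Of 16 further HIF-linked genes above the floor, Anxa2 among them, 11 were higher and 5 lower (median 0.09). Anxa2 alone passed 1.5-fold, downwards, as did 1.62% of all genes above the floor. With both arrays required at the floor, 10 of 13 HIF-linked genes were higher (median 0.16). Fam162a, a mitochondrial HIF target, read 9.35 in the shDAB2 clone against 8.89 in the vector clone (0.46). Plod2, a collagen lysyl hydroxylase gene, read 7.85 and 7.40 (0.45), with 0.19 on its second probe set. The histone demethylase gene Kdm3a read 8.56 and 8.25 (0.31), and Higd1a, a hypoxia-induced mitochondrial protein gene, 8.64 and 8.34 (0.30), with 0.02 and 0.05 on probe sets below the floor. None of these 4 genes reached 1.5-fold. This division of the neighbouring genes was made after the values were seen.

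The pentose phosphate enzymes, which branch off glycolysis, had 3 of 6 genes higher on the brightest probe set and a median of 0.04. Rpe, the ribulose phosphate epimerase gene, read 8.51 in the shDAB2 clone against 8.19 in the vector clone (0.31), with 0.23 on its second probe set. Pgd, the phosphogluconate dehydrogenase gene, counts as lower at -0.03 on its brightest probe set, but its other probe sets gave 0.27, 0.51 and 0.29, so its direction is uncertain; it was chosen after its values were seen. The further HIF regulators Arnt, Epas1, Vhl and Egln2, named after their values were seen, differed by 0.04 to 0.09, but Epas1 and Vhl passed the floor only on the shDAB2 array. Actb, a common reference gene, differed by -0.06.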

How the data were processed

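RNA of 1 shDAB2 clone and 1 vector clone, prepared from 10 µg of total RNA each, was measured on Affymetrix mouse 430A arrays. The authors deposited log2 expression values, 1 for each probe set on each array, made with RMA per the submitters' processing notes; its version, and any further arrays processed with these, were not given in the sources used here. That the scale is log2 was taken from the method and from the range of 5.65 to 12.86. The method compresses differences at low signal. The number of arrays limits the precision.

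Of 22626 probe sets 20380 had 1 gene in the platform annotation, 691 had several and 1555 were unnamed here; only the first were used. Differences were described by size, with limits of 1.5-fold and 2-fold, in Python 3.11.15 with pandas 2.3.3; limma 3.58.1 in R 4.3.3 supplied cyclic loess and quantile normalization. The procedure was tested on simulated data, with changes larger than any listed gene showed on its brightest probe set. That test does not cover differences of the sizes reported here. Named genes are all listed genes, the 8 neighbouring genes above the floor with the largest differences, Dab2 and Actb; other genes are said to have been chosen after their values were seen. The members and lists were chosen with earlier results of these data known. Alternatives were the normalizations, median centring, the mean of all probe sets, removal of probe sets that can match several transcripts, other floors and a 2-fold limit.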

Additional observations from a re-analysis of the deposited data

How the results depend on the processing

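No paired analysis was possible because each group holds 1 array. The count of genes at least 1.5-fold lower was 2 after cyclic loess, where Slc2a1 joined Slc2a3; at 2-fold the counts were 0 higher and 0 lower. Without the probe sets of suffix _s_at, _x_at and _a_at, which can match several transcripts, 10 genes were higher (16 before, with fewer genes measured) and 9 lower. Ldha, Tpi1, Pgam1, Pfkl and Aldoa, all higher before, have only such probe sets, so this setting gave no value for them. The same held for Hk1 and Ldhb, which were lower before. The glucose transporter median was -0.97 under this setting and -0.82 with the mean of all probe sets. With both values required at the 75th percentile (7.33), the lactate transporter median was -0.13, since only Slc16a1 was left, and that of the other HIF targets turned to 0.26, since only Bnip3 and Ddit4 were left. Other counts and class medians kept within 1.5 times or within the probe-set SD of 0.11. With both values required at the floor, an alternative chosen after seeing the data, 15 genes were higher and 12 lower, and the median of lower glycolysis was 0.19. Of 203 values of single genes under the alternatives 200 moved by less than that SD and 3 by more: Slc2a3 to -1.08 and -1.37, and Tpi1 to 0.38 with the mean of its probe sets. Only Pfkp changed sign, to -0.04 with that mean. Many of the 203 values could not move. A change of floor leaves a gene's difference as it is, and so does the mean for a gene with 1 probe set. Removal of suffixes changes nothing where the brightest probe set has none. Genes without a value under an alternative were not counted. The count of 200 is therefore no measure of stability. Cyclic loess and centring moved the median of all genes by less than 0.01. With 1 clone per group, the spread between clones and cultures is unknown.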
